A study of Caenorhabditis elegans with 16 samples.

Results

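Worms without a germline live longer, and genetic work in Caenorhabditis elegans has traced this to a small set of regulators. The 10 examined here, out of 42048 loci in the deposited tables, are daf-36, daf-9, daf-12, kri-1, tcer-1, daf-16, smk-1, pha-4, skn-1 and hsf-1. They were chosen by name for their known roles, with earlier results of these data known, and all 10 had an RPKM value in each of 16 libraries. RPKM divides reads by the library total and the gene's length, so levels of different genes can be compared.

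As background, loss of germline stem cells sends signals from the gonad to the intestine, where DAF-16, the worm FOXO transcription factor, enters the nucleus and changes fat metabolism and stress genes. A steroid branch makes dafachronic acids from cholesterol, with DAF-36 and DAF-9 as enzymes and the nuclear receptor DAF-12 as sensor. KRI-1 and TCER-1 act on DAF-16 in the intestine, and PHA-4, SKN-1, HSF-1 and SMK-1 serve as further longevity factors. Many of these proteins are controlled by localisation, ligand or phosphorylation, none of which RNA levels show.

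RNA came from whole bodies at day 1 of adulthood, with 4 libraries in each of 4 groups, and the strains were kept at 20 °C. The strain called SHU47 in the labels carries a glp-1 mutation in the TU3401 background and was fed RNAi bacteria (HT115 with the L4440 vector) against mxl-2, mml-1 or, as the control, Luc; TU3401 itself was fed Luc RNAi. GLP-1 is the Notch receptor that keeps germline stem cells dividing, and its loss removes the germline. TU3401 is a sid-1 mutant in which the double-stranded RNA channel SID-1 was restored under the neuronal unc-119 promoter, so feeding RNAi acts mainly in neurons. Every group carries this background, the glp-1 allele is not named in the labels, and TU3401 adults still have germ cells and embryos. MML-1 (a Mondo protein) and MXL-2 (its Mlx partner) bind DNA together and are themselves needed for long life without a germline. Whether the libraries of a group were separate cultures is not stated, so every p-value below reflects the spread among these libraries, which could be partly technical.

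The library totals behind the RPKM, derived from the deposited values, were 18818680 to 27228111 reads. The glp-1 transcript averaged 2.86 ± 0.593 RPKM in glp-1 libraries labelled mxl-2 RNAi, 3.44 ± 0.800 RPKM in those labelled mml-1 RNAi and 3.29 ± 0.550 RPKM in those on Luc RNAi, against 71.1 ± 3.02 RPKM in TU3401 (SD, n = 4 each). All 12 germline markers were lower in each glp-1 group than in TU3401, with summed levels of 10.9 to 21.98, 11.4 to 21.04 and 11.1 to 19.3 RPKM in the groups labelled mxl-2 RNAi, mml-1 RNAi and Luc RNAi, against 7173 to 7507 RPKM in TU3401. No germline marker was at 0 in all Luc RNAi libraries of glp-1 worms, but the early embryo genes pes-10, end-1, end-3 and med-1 were. In whole-body RNA the loss of a tissue raises the share of all others, and fewer cells of a type cannot be told apart from less RNA per cell. In whole-body RNA the RNAi targets were not lower under their own labels. The mml-1 transcript stood at 23.8, 91.5, 28.9 and 22.9 RPKM in its own RNAi group, against 35.2, 23.95, 11.9 and 11.2 RPKM on Luc RNAi. Likewise mxl-2 stood at 29.3, 90.7, 733 and 47.4 RPKM in the mxl-2 RNAi group, against 24.5, 30.3, 20.99 and 22.9 RPKM on Luc RNAi. For both targets the groups overlapped and the difference did not pass the test described below. The log2 fold change was 0.88 for mml-1 (limma adjusted p = 0.819) and 1.97 for mxl-2 (limma adjusted p = 0.766). The authors' deposited table gave mxl-2 3.26 in its own RNAi group (false discovery rate 0.0107). Feeding RNAi acts mainly in neurons here, so whole-body levels cannot show whether knockdown worked there. These groups are called by their labels throughout.

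The 10 regulators did not move as a block in glp-1 worms. On Luc RNAi, 3 were called higher than in TU3401 (daf-36, daf-12 and kri-1), 5 were called lower (tcer-1, smk-1, pha-4, skn-1 and hsf-1) and 2 were not called (daf-9 and daf-16). A gene was called when limma, fitted to log2(RPKM + 1) across all genes with a mean of at least 1 RPKM, gave it a Benjamini-Hochberg adjusted p under 0.05. Over all 13563 genes tested in this comparison 87.6% were called, 41.5% as higher and 46.1% as lower, so a count of 8 in 10 regulators is close to the background and says nothing particular about them. Groups did not overlap for 6 of the 10 regulators and for 83.4% of all genes. The median log2 fold change was -0.37 for the 10 regulators and -0.06 for all genes. Quantile scaling, which forces the same distribution of values on every library, moved the all-gene median to 0.42 and turned the regulators' median to 0.24. The values given for each regulator below are on the deposited RPKM scale unless another scaling is named.

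**Figure D1:**
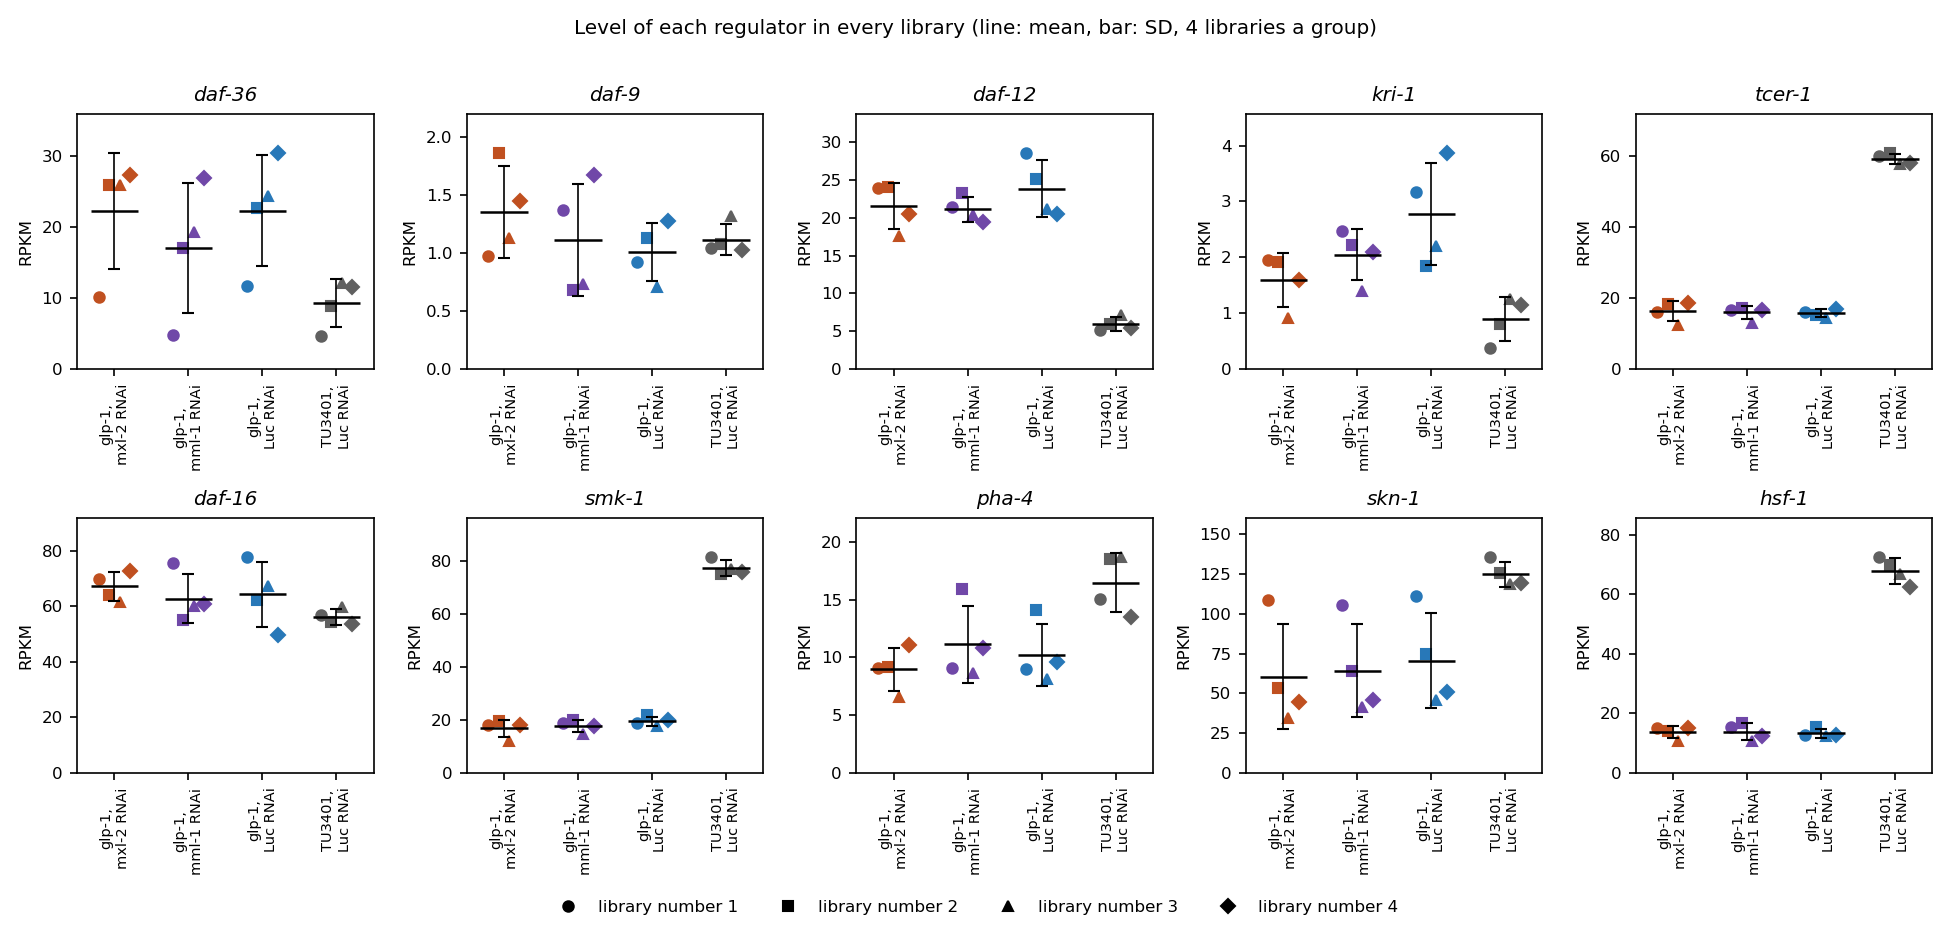
RPKM of each regulator (vertical axes start at 0 and differ between panels) in the 4 libraries of each group, with the symbol marking the library number in the titles, a line at the mean and a bar for the SD. The TU3401 libraries lie clearly below the glp-1 libraries for daf-12 (5.22 to 7.20 RPKM) and clearly above them for tcer-1, smk-1 and hsf-1, while skn-1 in glp-1 worms spreads widely, with library 1 highest in every glp-1 group.

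The steroid branch starts with DAF-36, a Rieske-type oxygenase that takes the first step from cholesterol towards dafachronic acids. The gene lies on chromosome V (10223513 to 10225710, reverse strand; all positions are from the WBcel235 annotation of Ensembl). In glp-1 worms daf-36 stood at 10.1, 25.9, 25.9 and 27.4 RPKM in libraries labelled mxl-2 RNAi, 4.84, 17.01, 19.3 and 26.9 RPKM in those labelled mml-1 RNAi, and 11.7, 22.6, 24.4 and 30.4 RPKM on Luc RNAi, against 4.67, 8.83, 12.2 and 11.6 RPKM in TU3401. Library 1 was the lowest of every group, TU3401 included, and through it the groups overlapped. On Luc RNAi daf-36 was higher in glp-1 worms by 1.17 on the log2 scale (SE 0.34, limma adjusted p = 0.0095), or 2.39-fold in mean RPKM, and it was higher in 4 of 4 pairs of libraries with the same number. Labelled mxl-2 RNAi, the difference from TU3401 was 1.16 (SE 0.37, limma adjusted p = 0.015). Labelled mml-1 RNAi it was 0.67 (SE 0.49, limma adjusted p = 0.219) and not called, although daf-36 was higher in 4 of 4 pairs there too. It was called with quantile scaling (1.34, limma adjusted p = 0.037), with the library number as a block (0.67, limma adjusted p = 0.0141), with voom and the block (0.85, limma adjusted p = 0.0097) and without library 1 of that group (1.15, limma adjusted p = 0.0085). Quantile scaling gave 1.86 labelled mxl-2 RNAi and 1.88 on Luc RNAi. The direct difference between the groups labelled mml-1 RNAi and Luc RNAi was not called.

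DAF-9, the cytochrome P450 that completes dafachronic acid synthesis, was the regulator with the fewest reads of the steroid branch, 28 to 75 per library. It lies on chromosome X (6196927 to 6200823, forward strand). In glp-1 worms daf-9 stood at 0.972, 1.87, 1.13 and 1.45 RPKM in libraries labelled mxl-2 RNAi, 1.37, 0.684, 0.730 and 1.67 RPKM in those labelled mml-1 RNAi, and 0.922, 1.13, 0.711 and 1.28 RPKM on Luc RNAi, against 1.04, 1.08, 1.32 and 1.02 RPKM in TU3401. All 4 groups overlapped. On Luc RNAi the log2 fold change over TU3401 was -0.08 (SE 0.13, 95% interval -0.37 to 0.21, limma adjusted p = 0.566). It was 0.14 and -0.03 for the groups labelled mxl-2 RNAi and mml-1 RNAi (limma adjusted p = 0.382 and 0.881). With quantile scaling daf-9 was called higher in all 3 glp-1 groups than in TU3401, by 0.59 labelled mxl-2 RNAi, 0.46 labelled mml-1 RNAi and 0.39 on Luc RNAi, so its direction depends on the scaling. The interval given holds for the deposited scale and covers the spread between libraries.

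DAF-12, the nuclear receptor that dafachronic acids bind, showed the widest rise among the 10. The gene lies on chromosome X (10635908 to 10666875, forward strand). In glp-1 worms daf-12 stood at 23.9, 24.1, 17.6 and 20.5 RPKM in libraries labelled mxl-2 RNAi, 21.4, 23.3, 20.4 and 19.5 RPKM in those labelled mml-1 RNAi, and 28.6, 25.1, 21.2 and 20.5 RPKM on Luc RNAi, against 5.22, 5.90, 7.20 and 5.37 RPKM in TU3401. Every glp-1 library was above every TU3401 library. The means were 3.63-fold, 3.57-fold and 4.03-fold those of TU3401 for the groups labelled mxl-2 RNAi, mml-1 RNAi and Luc RNAi. On Luc RNAi the log2 fold change was 1.84 (SE 0.13, limma adjusted p = 9.3e-07). With quantile scaling the log2 fold changes were 2.35 labelled mxl-2 RNAi, 2.34 labelled mml-1 RNAi and 2.47 on Luc RNAi. Among the regulators' levels daf-12 stood at the 69.6th percentile of all genes above the minimum in glp-1 worms on Luc RNAi and at the 32.6th in TU3401.

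KRI-1, an ankyrin-repeat protein of the intestine that is needed for DAF-16 to enter the nucleus when the germline is lost, was a low transcript with 16 to 232 reads per library. Its gene lies on chromosome I (8226494 to 8240637, reverse strand). In glp-1 worms kri-1 stood at 1.96, 1.91, 0.915 and 1.59 RPKM in libraries labelled mxl-2 RNAi, 2.48, 2.21, 1.399 and 2.096 RPKM in those labelled mml-1 RNAi, and 3.18, 1.85, 2.21 and 3.87 RPKM on Luc RNAi, against 0.386, 0.798, 1.25 and 1.15 RPKM in TU3401. The Luc RNAi and mml-1 RNAi labels lay wholly above TU3401, and the mxl-2 RNAi label overlapped it through library 3. On Luc RNAi kri-1 was higher by 0.99 (SE 0.22, limma adjusted p = 0.0021), or 3.103-fold in mean RPKM, and with a pseudocount of 0.1 in place of 1 the log2 fold change was 1.58. Labelled mml-1 RNAi it was higher by 0.70 (SE 0.19, limma adjusted p = 0.0071). Labelled mxl-2 RNAi the difference was 0.46 (SE 0.20, limma adjusted p = 0.060), and without library 3 of that group 0.60 (limma adjusted p = 0.0199). Quantile scaling gave called differences of 0.89 labelled mxl-2 RNAi, 1.13 labelled mml-1 RNAi and 1.405 on Luc RNAi.

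TCER-1, a nuclear protein, works beside DAF-16 in germline-less worms. Its gene lies on chromosome II (7045874 to 7050071, reverse strand). In glp-1 worms tcer-1 stood at 16.22, 18.3, 12.5 and 18.7 RPKM in libraries labelled mxl-2 RNAi, 16.8, 17.3, 13.05 and 16.8 RPKM in those labelled mml-1 RNAi, and 16.14, 15.4, 14.3 and 17.1 RPKM on Luc RNAi, against 60.1, 61.0, 57.9 and 58.1 RPKM in TU3401. The groups lay far apart, with the highest glp-1 library at 18.7 RPKM. On Luc RNAi tcer-1 was 3.77-fold lower in mean RPKM, or -1.85 on the log2 scale (SE 0.07, limma adjusted p = 9.4e-09). The differences were -1.80 and -1.84 for the groups labelled mxl-2 RNAi and mml-1 RNAi. With quantile scaling they became -0.90 labelled mxl-2 RNAi, -0.94 labelled mml-1 RNAi and -0.97 on Luc RNAi, and all 3 were still called. The germline markers fell in the same libraries, and their part in the tcer-1 level was not tested.

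DAF-16 had one of the highest levels of the 10 in glp-1 worms and the fifth in TU3401, and on the deposited scale its differences from TU3401 were small. It lies on chromosome I (10750498 to 10776703, forward strand). In glp-1 worms daf-16 stood at 69.9, 64.2, 61.6 and 72.8 RPKM in libraries labelled mxl-2 RNAi, 75.4, 54.9, 60.0 and 60.7 RPKM in those labelled mml-1 RNAi, and 77.8, 62.4, 67.2 and 49.5 RPKM on Luc RNAi, against 56.8, 54.1, 59.8 and 53.7 RPKM in TU3401. On Luc RNAi the glp-1 libraries lay on both sides of TU3401, with library 1 the highest and library 4 the lowest of the 16. The log2 fold change there was 0.17 (SE 0.13, 95% interval -0.11 to 0.46, limma adjusted p = 0.218), and without library 4 of the glp-1 group it was 0.29 (limma adjusted p = 0.016). Labelled mml-1 RNAi it was 0.15 (limma adjusted p = 0.187). Labelled mxl-2 RNAi all libraries lay above TU3401 and the difference of 0.25 was called (SE 0.08, limma adjusted p = 0.013), but not in a fit of all 16 libraries together (limma adjusted p = 0.0664). The direct difference between the groups labelled mxl-2 RNAi and Luc RNAi was 0.08 (SE 0.14, limma adjusted p = 0.962). With quantile scaling daf-16 was called higher than in TU3401 by 0.94 labelled mxl-2 RNAi, 0.85 labelled mml-1 RNAi and 0.84 on Luc RNAi. Its coding exons share 84 bases with the antisense noncoding RNA H36N01.5, which was listed at 0 in every library, and its isoforms could not be separated in values per gene.

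SMK-1, a regulatory subunit of protein phosphatase PP4 in the SMEK family and a DAF-16 cofactor, lies on chromosome V (8607800 to 8615843, forward strand). In glp-1 worms smk-1 stood at 18.2, 19.4, 12.2 and 17.9 RPKM in libraries labelled mxl-2 RNAi, 18.9, 19.9, 14.7 and 17.7 RPKM in those labelled mml-1 RNAi, and 18.9, 21.8, 17.7 and 19.8 RPKM on Luc RNAi, against 81.4, 75.1, 76.9 and 75.6 RPKM in TU3401. No glp-1 library came near the TU3401 range. On Luc RNAi smk-1 was 3.95-fold lower, or -1.93 on the log2 scale (SE 0.08, limma adjusted p = 1.3e-08). The differences were -2.14 and -2.06 for the groups labelled mxl-2 RNAi and mml-1 RNAi. With quantile scaling they were -1.33 labelled mxl-2 RNAi, -1.26 labelled mml-1 RNAi and -1.15 on Luc RNAi, all still called.

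PHA-4, the FoxA factor that specifies the pharynx in the embryo and promotes autophagy genes in long-lived adults, lies on chromosome V (20753052 to 20760317, forward strand). In glp-1 worms pha-4 stood at 9.06, 9.16, 6.54 and 11.1 RPKM in libraries labelled mxl-2 RNAi, 9.08, 15.9, 8.62 and 10.9 RPKM in those labelled mml-1 RNAi, and 8.98, 14.1, 8.17 and 9.63 RPKM on Luc RNAi, against 15.1, 18.5, 18.7 and 13.5 RPKM in TU3401. Library 2 was the highest on Luc RNAi and labelled mml-1 RNAi and made both groups overlap TU3401, while the group labelled mxl-2 RNAi lay below it. On Luc RNAi pha-4 was lower, with a difference of -0.65 on the log2 scale (SE 0.17, limma adjusted p = 0.0056). It was -0.82 labelled mxl-2 RNAi (SE 0.16, limma adjusted p = 0.0010) and -0.55 labelled mml-1 RNAi (SE 0.19, limma adjusted p = 0.022). The last call was lost when library 1 or 3 labelled mml-1 RNAi, or TU3401 library 2 or 3, was left out (limma adjusted p = 0.0552 to 0.0604). With quantile scaling pha-4 was not called in any of the 3, at -0.11 labelled mxl-2 RNAi, 0.20 labelled mml-1 RNAi and 0.082 on Luc RNAi, while with median-ratio scaling all 3 calls were kept. Of 7 pharynx markers tested, 5 were higher and 2 lower on Luc RNAi, and their summed level was 104.0 to 116.5 RPKM in glp-1 worms and 50.2 to 70.9 RPKM in TU3401.

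SKN-1, the worm Nrf factor for oxidative stress and lipid genes, spread widely within the glp-1 groups. Its gene lies on chromosome IV (5651039 to 5660384, reverse strand). In glp-1 worms skn-1 stood at 109, 53.6, 34.8 and 44.7 RPKM in libraries labelled mxl-2 RNAi, 105, 64.2, 41.1 and 45.9 RPKM in those labelled mml-1 RNAi, and 111, 74.5, 46.1 and 50.7 RPKM on Luc RNAi, against 136, 126, 118.7 and 118.98 RPKM in TU3401. Library 1 was the highest of each glp-1 group and close under the TU3401 range, and the other 3 lay far below it. No glp-1 library reached TU3401. On Luc RNAi skn-1 was 1.77-fold lower in mean RPKM, or -0.90 on the log2 scale (SE 0.25, limma adjusted p = 0.0076). The differences were -1.17 labelled mxl-2 RNAi (SE 0.30, limma adjusted p = 0.0051) and -1.05 labelled mml-1 RNAi (SE 0.26, limma adjusted p = 0.0050). With quantile scaling they were -0.72 labelled mxl-2 RNAi, -0.62 labelled mml-1 RNAi and -0.52 on Luc RNAi, all still called. An overlapping gene on the other strand, csn-5, shares no coding bases with skn-1.

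HSF-1, the heat shock transcription factor, had the deepest fall of the 10. Its gene lies on chromosome I (11953507 to 11963085, reverse strand). In glp-1 worms hsf-1 stood at 15.01, 14.2, 10.7 and 15.05 RPKM in libraries labelled mxl-2 RNAi, 15.3, 16.9, 10.9 and 12.4 RPKM in those labelled mml-1 RNAi, and 12.64, 15.6, 12.3 and 12.61 RPKM on Luc RNAi, against 72.6, 69.8, 66.7 and 62.4 RPKM in TU3401. The groups were wide apart. On Luc RNAi hsf-1 was 5.11-fold lower in mean RPKM, or -2.27 on the log2 scale (SE 0.09, limma adjusted p = 1.4e-08). It was -2.23 in both groups labelled mxl-2 RNAi and mml-1 RNAi against TU3401. With quantile scaling the differences were -1.396 labelled mxl-2 RNAi, -1.396 labelled mml-1 RNAi and -1.47 on Luc RNAi.

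**Figure D2:**
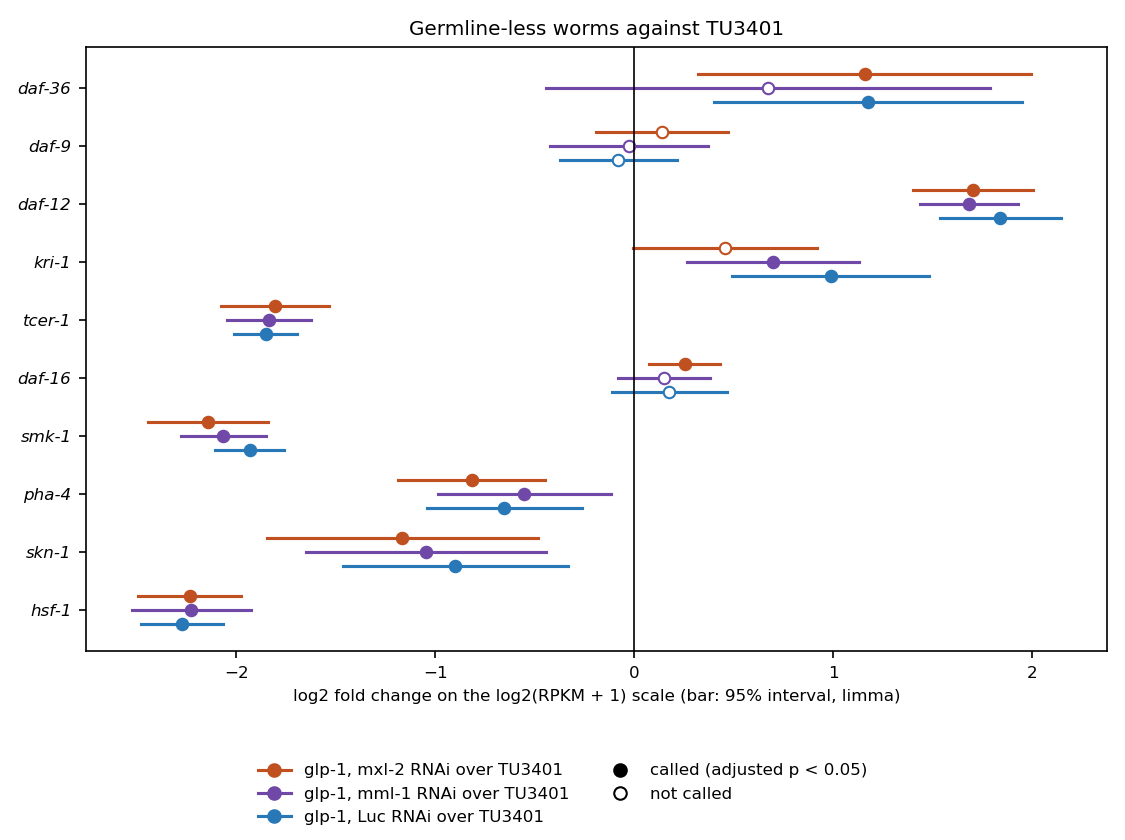
Log2 fold change of each regulator (horizontal axis, log2(RPKM + 1) scale) in the glp-1 groups labelled mxl-2 RNAi, mml-1 RNAi and Luc RNAi over TU3401, with 95% intervals from limma and filled points for calls. The 3 groups share the TU3401 libraries and lie close together for daf-12 (1.68 to 1.84), tcer-1, smk-1 and hsf-1, while daf-36, kri-1 and daf-16 are called in some groups and not in others.

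In the groups labelled mxl-2 RNAi and mml-1 RNAi the counts against TU3401 were much the same as on Luc RNAi. Labelled mxl-2 RNAi, 3 regulators were higher and 5 lower, where 86.8% of 13525 genes tested were called (40.7% as higher, 46.0% as lower), and 7 had groups that did not overlap against 82.2% of genes. Labelled mml-1 RNAi, 2 were higher and 5 lower, where 87.0% of 13534 genes were called (40.9% as higher, 46.2% as lower), and 6 had groups that did not overlap against 82.3% of genes. The share of regulators without overlap was below that of all genes, and with 10 regulators these counts were read no further. The 3 comparisons share their TU3401 libraries, so their likeness is no independent repeat. In the authors' deposited table for glp-1 against TU3401 on Luc RNAi, 8 of the 10 had a false discovery rate under 0.05, and daf-16 had 0.0928. Over all loci 13901 of the 42048 listed did, but 16716 of those listed were at 0 in every library. That share is therefore not like the shares of tested genes above, and the count of 8 was read no further. The authors' deposited table gave kri-1 a log2 fold change of 1.77 on the authors' own scale.

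The order of levels also differed between glp-1 worms and TU3401. On Luc RNAi, skn-1 (70.6 ± 29.6 RPKM, SD, n = 4) and daf-16 (64.2 ± 11.7 RPKM) were the highest in glp-1 worms and overlapped each other, and both stood apart from daf-12 (23.8 ± 3.76 RPKM). Next came daf-36 (22.3 ± 7.81 RPKM) and smk-1 (19.5 ± 1.73 RPKM), each overlapping its neighbour above, and smk-1 did not overlap tcer-1 (15.7 ± 1.17 RPKM). Then hsf-1 (13.3 ± 1.56 RPKM) overlapped both tcer-1 above it and pha-4 (10.2 ± 2.66 RPKM) below it, and kri-1 (2.78 ± 0.919 RPKM) and daf-9 (1.01 ± 0.247 RPKM) closed the order with no overlap. In TU3401, skn-1 (125 ± 7.98 RPKM), smk-1 (77.3 ± 2.88 RPKM) and hsf-1 (67.9 ± 4.37 RPKM) led, each apart from the next. There tcer-1 (59.3 ± 1.54 RPKM) and daf-16 (56.1 ± 2.80 RPKM) overlapped, pha-4 stood alone at 16.46 ± 2.55 RPKM, daf-36 (9.31 ± 3.42 RPKM) overlapped daf-12 (5.92 ± 0.903 RPKM), and daf-9 (1.12 ± 0.136 RPKM) overlapped kri-1 (0.895 ± 0.390 RPKM). Thus daf-12 stood above hsf-1, tcer-1 and smk-1 by its mean in glp-1 worms and below all 3 in TU3401.

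The mxl-2 RNAi and mml-1 RNAi groups are glp-1 worms in a background where feeding RNAi acts mainly in neurons. Neither target was lower in whole-body RNA of its own group, which cannot show knockdown in neurons alone. The comparisons below are therefore between labels. No regulator passed the test in any of the 3 comparisons among glp-1 groups. Against Luc RNAi, 0 of 10 were called labelled mxl-2 RNAi, where 0.103% of 12581 genes were called (0.0159% as higher, 0.0874% as lower), and 0 of 10 labelled mml-1 RNAi, where 0.0159% of 12591 genes were called. Between the groups labelled mxl-2 RNAi and mml-1 RNAi 0 of 10 were called and 0.0% of 12540 genes, with 111 genes and 0 regulators at an unadjusted p under 0.05. No regulator had groups that did not overlap, where 4.12%, 4.75% and 0.678% of all genes did in these 3 comparisons. The authors' deposited tables give 77 of 42048 loci for the mxl-2 RNAi label and 88 of 42048 for the mml-1 RNAi label at a false discovery rate under 0.05. None of the 10 is among them.

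Libraries with the same number varied together in these 3 comparisons, and limma fits with the number as a block called 24 genes labelled mxl-2 RNAi and 60 labelled mml-1 RNAi against Luc RNAi, against 13 and 2 without it. With the block still 0 of the 10 regulators were called, and the smallest limma adjusted p among them was 0.240 labelled mxl-2 RNAi and 0.192 labelled mml-1 RNAi. Leaving out any 1 library, those with the extreme mml-1 or mxl-2 values included, also gave 0 of 10 in each comparison. Without the block the smallest unadjusted p was that of kri-1 labelled mxl-2 RNAi, at 1.59 ± 0.481 RPKM against 2.78 ± 0.919 RPKM on Luc RNAi (SD, n = 4 each). Its log2 fold change was -0.53 (95% interval -1.02 to -0.04, limma unadjusted p = 0.037, adjusted p = 0.702), the groups overlapped, and it was lower in 3 of 4 pairs with the same number. The authors' deposited table gave kri-1 a false discovery rate of 0.906 there.

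Some regulators leaned the same way in every numbered pair without passing the test. On both RNAi labels skn-1 and smk-1 were below Luc RNAi in 4 of 4 pairs. In library 1 labelled mml-1 RNAi, however, smk-1 was nearly level with library 1 on Luc RNAi (18.87 against 18.88 RPKM). For smk-1 the log2 fold change was -0.21 labelled mxl-2 RNAi (95% interval -0.55 to 0.12) and -0.13 labelled mml-1 RNAi (-0.39 to 0.13). For skn-1 it was -0.27 labelled mxl-2 RNAi (95% interval -1.15 to 0.61) and -0.15 labelled mml-1 RNAi (-0.97 to 0.68). Labelled mml-1 RNAi, daf-12 and daf-36 were lower and pha-4 was higher in 4 of 4 pairs, and labelled mxl-2 RNAi daf-9 was higher in 4 of 4. Thus 3 of 10 regulators labelled mxl-2 RNAi and 5 of 10 labelled mml-1 RNAi had one direction in all pairs, where 24.9% and 27.4% of all genes did, and the count was read no further. Both RNAi labels are set against the same Luc RNAi libraries, so likeness between them is no repeat. These intervals come from fits without the block and reached from -1.15 to 0.83 over the 10 regulators labelled mxl-2 RNAi and from -1.62 to 0.68 labelled mml-1 RNAi. With the block they reached from -0.96 to 0.57 labelled mxl-2 RNAi and from -0.91 to 0.44 labelled mml-1 RNAi. In the blocked fits skn-1 had an interval of -0.49 to -0.04 labelled mxl-2 RNAi (limma unadjusted p = 0.026, adjusted p = 0.248) and of -0.28 to -0.01 labelled mml-1 RNAi (limma unadjusted p = 0.040, adjusted p = 0.240). The blocked interval also left out 0 for kri-1 labelled mxl-2 RNAi (-0.96 to -0.10, limma adjusted p = 0.240) and for daf-36 labelled mml-1 RNAi (-0.91 to -0.10, limma adjusted p = 0.192). None of these differences passed the adjustment over all genes, and 2 of 10 regulators with such an interval on each label are near the 15.6% of all genes labelled mxl-2 RNAi and the 18.7% labelled mml-1 RNAi. For tcer-1 the blocked intervals were -0.18 to 0.27 labelled mxl-2 RNAi and -0.16 to 0.19 labelled mml-1 RNAi.

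**Figure D3:**
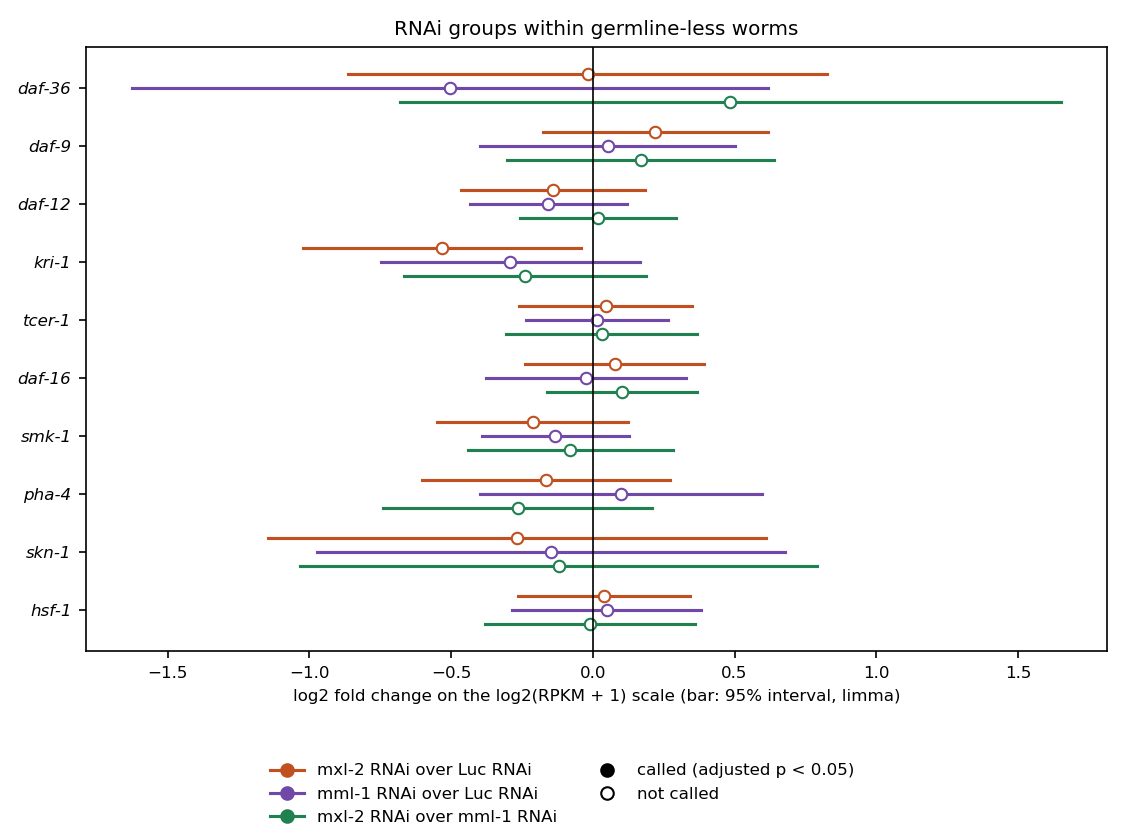
Log2 fold change of each regulator (horizontal axis, log2(RPKM + 1) scale) between RNAi groups of glp-1 worms as labelled, with 95% intervals from limma without the block. All points are open (not called), and the only interval drawn that leaves out 0 is that of kri-1 for mxl-2 RNAi over Luc RNAi (-1.02 to -0.04, unadjusted).

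For 7 regulators most of the spread among glp-1 libraries followed the library number rather than the RNAi label. For skn-1, 94.2% of the sum of squares of log2(RPKM + 1) over the 12 glp-1 libraries lay between the 4 numbers and 3.95% between the RNAi labels. Its mean over the 3 glp-1 groups was 108 RPKM in library 1, 64.1 in library 2, 40.7 in library 3 and 47.1 in library 4. For daf-36 the numbers held 82.6% and the labels 11.3%, with means of 8.89, 21.8, 23.2 and 28.2 RPKM for numbers 1 to 4. In library 1, therefore, skn-1 was high and daf-36 low in each glp-1 group. The share by number was 80.9% for tcer-1, whose library 3 was the lowest of every glp-1 group. It was 69.6% for hsf-1, 67.4% for smk-1, 64.7% for daf-12 and 64.5% for pha-4. The lowest shares by number were 46.6% for daf-16, 37.4% for daf-9 and 36.3% for kri-1, and kri-1 was the one regulator with a larger share by label (41.8%). Over 12558 genes the median share was 56.4% by number and 12.64% by label, so 7 regulators stood above the median by number. Even without any effect, 4 numbers hold a larger share on average than 3 labels, so the shares by number and by label are not on the same footing. What the numbers stand for is not given in the labels, and no cause was tested.

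**Figure D4:**
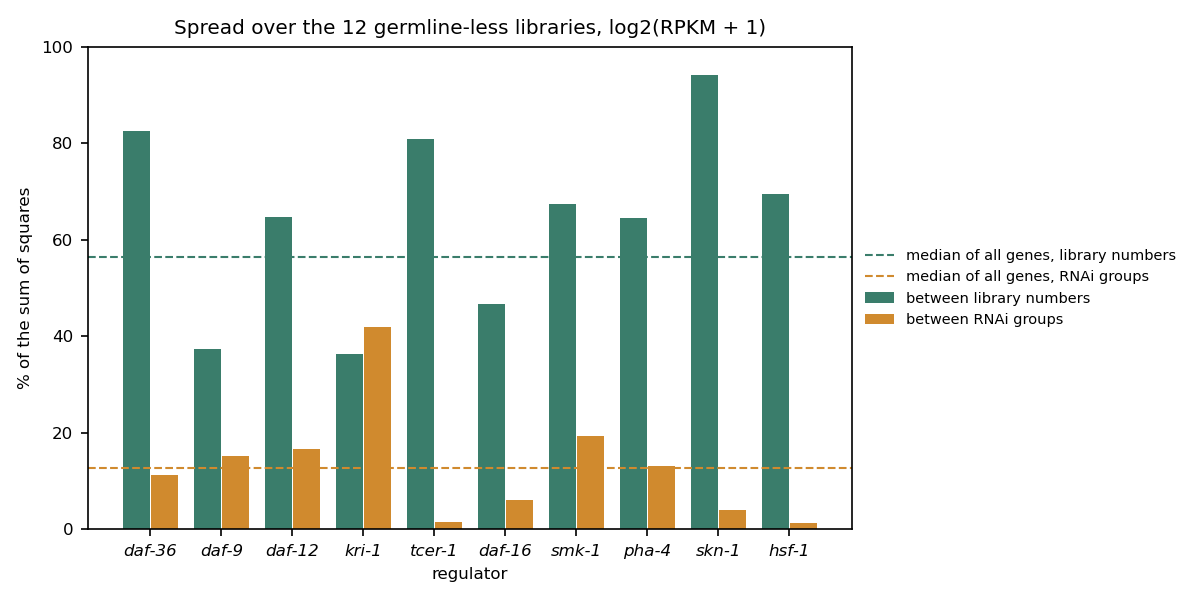
Share of each regulator's sum of squares over the 12 glp-1 libraries (vertical axis, %) that lies between library numbers and between RNAi labels, with dashed lines at the medians of 12558 genes. The share by number is highest for skn-1 (94.2%), and kri-1 is the one gene whose bar by RNAi label (41.8%) is the taller.

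Across the same 12 libraries the highest positive correlations between regulators were those of daf-12 with skn-1 (Pearson r of log2(RPKM + 1) 0.762), hsf-1 with smk-1 (0.752), pha-4 with hsf-1 (0.751) and tcer-1 with smk-1 (0.737). The correlation farthest from 0 was negative, that of daf-36 with skn-1 (-0.815), and next among the negative ones was daf-16 with daf-36 (-0.575). These are descriptions over libraries of which 3 carry each number, with totals of 19242986 to 27228111 reads. Over all 16 libraries such correlations also take in the difference between glp-1 and TU3401. The gene most like each regulator there was Y57E12AR.1 for daf-12 (r = 0.994), F40F11.3 for tcer-1, M01E5.3 for hsf-1 and T05A12.3 for smk-1 (r = 0.997 for each), scav-2 for skn-1 (0.980), sdz-6 for daf-36 (0.969) and dlg-1 for pha-4 (0.965). Likeness was weaker for kri-1 with C11G10.1 (0.895), daf-16 with T15B7.17 (0.797) and daf-9 with ZK757.2 (0.743). For example, M01E5.3 averaged 37.0 ± 2.42 RPKM in glp-1 worms on Luc RNAi and 127 ± 4.11 RPKM in TU3401 (SD, n = 4 each).

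Genes that work with the regulators were read from 12 lists of 110 genes in all, of which 106 were in the tables. Of the 96 tested on Luc RNAi, 44 were higher and 37 lower in glp-1 worms than in TU3401, again near the 87.6% called over all genes. No gene of these lists was called in any comparison among glp-1 groups.

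Around the steroid branch few genes had enough reads. Of 6 genes for ligand synthesis and sterol handling 2 were tested, and ncr-1, a Niemann-Pick type sterol transporter, was higher by 0.83 (14.9 ± 2.70 RPKM in glp-1 worms on Luc RNAi and 8.12 ± 2.64 RPKM in TU3401). Of 5 DAF-12 partners and targets tested, 3 were higher and 2 lower. The target cdr-6 was higher by 2.33 and fard-1, a fatty acyl reductase, by 1.22, while din-1, the co-repressor of DAF-12 without ligand, was lower (log2 fold change -0.53), as was akt-1, an insulin pathway kinase (-0.65). With quantile scaling no DAF-12 partner or target was called lower.

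Among 17 regulators and partners of DAF-16 and TCER-1 tested, 5 were higher and 10 lower, with a median log2 fold change of -1.21. With quantile scaling 6 were higher and 8 lower, with a median of -0.32. Of the higher members akt-2, an insulin pathway kinase, stood at 54.7 ± 18.9 RPKM in glp-1 worms on Luc RNAi and 10.97 ± 3.25 RPKM in TU3401 (SD, n = 4 each; log2 fold change 2.20, limma adjusted p = 5.2e-05). Among those that fell was hcf-1, a nuclear partner that restrains DAF-16, at 5.22 ± 0.647 RPKM in glp-1 worms on Luc RNAi and 110.2 ± 3.36 RPKM in TU3401 (SD, n = 4 each; log2 fold change -4.17, limma adjusted p = 2.0e-10). The kinase subunit age-1 (log2 fold change -2.96) and eak-7 (-2.65) were lower too. The germline markers fell in the same libraries (all 12, to at most 19.3 RPKM in sum on Luc RNAi), and their part in these falls was not tested. Of the KRI-1 list, ccm-3 was lower (log2 fold change -2.60) and prdx-2, a peroxiredoxin, was not called (0.14, limma adjusted p = 0.0740). On the deposited scale prdx-2 was called higher labelled mxl-2 RNAi (0.32, limma adjusted p = 0.0066) and labelled mml-1 RNAi (0.36, limma adjusted p = 0.0012). Under quantile scaling 0 of the 2 genes of this list were called higher in any glp-1 group. There prdx-2 stood at -0.12 on Luc RNAi (limma adjusted p = 0.225), so its direction depends on the scaling.

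The 9 tested targets of DAF-16 and TCER-1, of 10 listed, were all called higher on Luc RNAi, with a median log2 fold change of 2.14, where 41.5% of all genes were called higher. The metallothionein mtl-1 stood at 2065 ± 621 RPKM in glp-1 worms and 104 ± 42.8 RPKM in TU3401, and sod-3, the mitochondrial superoxide dismutase, at 79.4 ± 13.2 and 5.33 ± 1.87 RPKM. The transhydrogenase nnt-1 was higher by 3.08 and the lipase lipl-4 by 2.78. With quantile scaling 8 of the 9 were called higher, and 8 were called higher in each of the groups labelled mxl-2 RNAi and mml-1 RNAi. The intestine markers moved the same way, 7 of 9 tested higher with a summed level of 4750 to 8068 RPKM in glp-1 worms on Luc RNAi and 1700 to 2092 RPKM in TU3401. That list also holds mtl-1. Muscle markers (6 of 7 tested, median log2 fold change 1.75) and somatic gonad markers (5 of 5, median 1.08) were higher too. Of 11 neuron markers tested, 9 were higher and 1 lower (median 0.79). Hypodermis markers went the other way, with 2 of 6 tested higher and 4 lower (median -2.52). Their summed level was nonetheless 848.8 to 1173.5 RPKM in glp-1 worms on Luc RNAi and 417 to 609 RPKM in TU3401. The part of any tissue's share in the rises of the targets was not tested. In the same comparison daf-16 itself was not called on the deposited scale (0.17) and was called higher with quantile scaling (0.84), and tcer-1 was lower on both (-1.85 and -0.97).

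**Figure D5:**
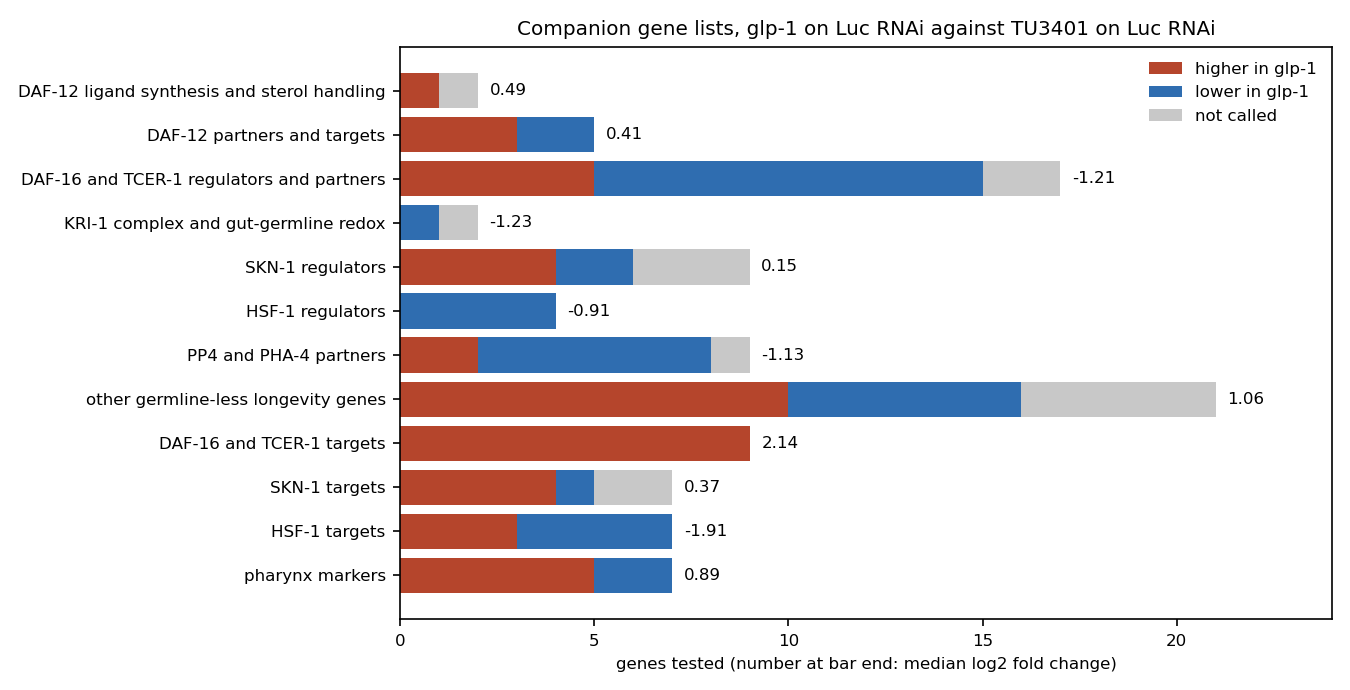
Number of tested genes in each list (horizontal axis) called higher, called lower or not called in glp-1 worms on Luc RNAi against TU3401 on Luc RNAi, with the median log2 fold change at the bar end. All 9 tested targets of DAF-16 and TCER-1 were higher (median 2.14; 41.5% of all genes were), and all 4 regulators of HSF-1 were lower (median -0.91; 3 of 4 with quantile scaling).

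Of 9 partners of PP4 and PHA-4 tested, 6 were lower and 2 higher, with a median log2 fold change of -1.13, and with quantile scaling 6 were lower and 3 higher, with a median of -0.30. The PP4 genes beside smk-1 fell too, with log2 fold changes of -3.67 for ppfr-2, -1.95 for ppfr-4, -1.60 for the catalytic subunit pph-4.1 and -1.26 for ppfr-1. The catalytic subunit pph-4.1 stood at 18.6 ± 1.08 RPKM in glp-1 worms on Luc RNAi and 58.5 ± 1.53 RPKM in TU3401. Of 9 SKN-1 regulators tested 4 were higher and 2 lower, led by brap-2 at -1.31, elt-7 at 1.15, elt-2 at 0.92 and the kinase sek-1 at 0.64. With quantile scaling 8 of these 9 were higher and 1 lower. The GATA factors elt-2 and elt-7 are also in the intestine list. Among 7 SKN-1 targets, most of them glutathione enzymes, 4 were higher and 1 lower: gst-10 was higher by 3.79, gst-4 by 2.69 and gst-5 by 1.75, and gst-7 was lower (-1.38). For example gst-4 stood at 248 ± 31.9 RPKM in glp-1 worms on Luc RNAi and 37.5 ± 5.25 RPKM in TU3401, while skn-1 was lower in the same libraries.

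All 4 HSF-1 regulators tested were lower, with log2 fold changes of -2.95 for ddl-1, -0.91 for jmjd-3.1 and ddl-2 and -0.72 for hsb-1, where 46.1% of all genes were called lower. With quantile scaling 3 of the 4 were called lower and ddl-2 was not (-0.17, limma adjusted p = 0.115), with a median of -0.59 for the list. The proteins DDL-1, DDL-2 and HSB-1 are known to hold HSF-1 inactive. The HSF-1 targets split: 4 of 7 tested were lower and 3 higher. The abundant chaperones fell, with log2 fold changes of -2.90 for daf-21 (Hsp90), -2.08 for hsp-1 and -1.91 for hsp-110, and sip-1, a small heat shock protein of oocytes and embryos, stood at 0.311 ± 0.121 RPKM in glp-1 worms on Luc RNAi and 3288 ± 570 RPKM in TU3401. The inducible genes hsp-70, hsp-16.2 and hsp-16.41 were higher, by 1.76, 1.45 and 1.37. The hsp-16 genes come in near-identical pairs whose reads may have been divided or dropped, and hsp-16.1 and hsp-16.48 were listed at 0 throughout. On the deposited scale the counts of both lists were the same labelled mxl-2 RNAi and mml-1 RNAi. Under quantile scaling 4 of the 4 HSF-1 regulators were called lower labelled mxl-2 RNAi and 2 labelled mml-1 RNAi.

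Among 21 other germline-less longevity genes tested, 10 were higher and 6 lower on Luc RNAi. The desaturases fat-5 and fat-6 were higher by 2.80 and 2.26 and the lipase lipl-4, also a DAF-16 target, by 2.78, while mxl-1, a Max-like factor, was lower (-2.35). For fat-6 the levels were 2424 ± 590 RPKM in glp-1 worms on Luc RNAi and 503 ± 118.8 RPKM in TU3401 (SD, n = 4 each).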

How the data were processed

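The authors deposited RPKM values for each library, in tables that set 2 groups side by side, and per the file headers also, for each gene, log2 fold change, p-value, false discovery rate and a ranking score, which was not used. The names of the authors' tables credit edgeR. Upstream, the submitters' processing notes list bcl2fastq, TopHat2 2.1.1 and GRCh38, a human build; the tables hold worm genes, and the worm build, counting tool, strandedness and read layout are not given in the sources. Whole reads were recovered from the RPKM for all 25332 loci above 0 (tolerance 0.001); 1 read on a gene of 1 kb was worth 0.0367 to 0.0531 RPKM, and the lengths behind RPKM were 3 to 39 bases above the annotated coding bases of the 10 regulators. Library totals were derived by taking the most frequent RPKM above 0 at 21-base piRNA loci as 1 read. Libraries were grouped by their labels, 4 to a group.

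Tests ran with limma 3.58.1 in R 4.3.3 on log2(RPKM + 1), for the 8 libraries of each of 6 comparisons, on genes with a mean of at least 1 RPKM (lmFit, eBayes with trend and robust variances, 2-sided, Benjamini-Hochberg over all genes tested, called under 0.05). Fold changes on this scale understate those of low genes. The fit was also run on simulated data, with few genes changed and no shared deviation of same-numbered libraries. That run does not cover data in which most genes differ or numbered libraries deviate together. The regulators, lists and rules (all 10 regulators, the targeted genes, 1 most alike gene each, up to 4 called genes of a list by absolute change) were chosen with earlier results of these data known. A gene that the rule names is not reported here. Outside that rule, akt-2, hsp-16.41, prdx-2 and further called members of the HSF-1 target list were named after their values were seen.

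Same-numbered libraries deviated together, with correlations of deviations of 0.12 to 0.27 for glp-1 against TU3401 on Luc RNAi and 0.20 to 0.68 among glp-1 groups. All were above 0.1, so the number was read as a pairing there. The pairing on Luc RNAi against TU3401 is weak, since library 3 correlated more with another number (0.24) than with its own (0.12). Labelled mml-1 RNAi (0.03 to 0.28) or mxl-2 RNAi (0.07 to 0.25) against TU3401 the number was not read as a pairing. Alternatives were another pseudocount, filter, scaling (quantile, median-ratio), variance model, all 16 libraries in 1 fit, the block, voom on recovered reads, and each library left out. Intervals cover library spread only. No sequences are printed.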

Additional observations from a re-analysis of the deposited data

Results flagged for a closer look

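In each group of 4 the most extreme library was set against the others by Dixon's test, over 56 groups of values, and 8 stood out. Chance alone marks about 1 in 20 such groups. Among the regulators, daf-36 was 10.1 RPKM in library 1 labelled mxl-2 RNAi, against 25.9 to 27.4 RPKM in the other libraries of that group. For tcer-1, library 3 labelled mml-1 RNAi had 13.05 RPKM, against 16.8 to 17.3 RPKM in the others. For hsf-1, library 2 of glp-1 worms on Luc RNAi had 15.6 RPKM, against 12.3 to 12.64 RPKM in the others.

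The genes that check the labels gave the other 5. The targeted gene mxl-2 stood at 733 RPKM in library 3 labelled mxl-2 RNAi (29.3 to 90.7 RPKM in the others) and at 308 RPKM in library 3 labelled mml-1 RNAi (25.4 to 26.98 RPKM in the others). For mml-1, library 2 labelled mml-1 RNAi had 91.5 RPKM (22.9 to 28.9 RPKM in the others). In TU3401, glp-1 was 75.6 RPKM in library 2 (69.2 to 70.3 RPKM in the others) and sid-1 was 149 RPKM in library 3 (111.6 to 117 RPKM in the others).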

How the results depend on the processing

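Over the 6 comparisons the alternatives gave 1067 values for the 10 regulators. Of these, 1043 kept their side of the threshold, and with the same sign 14 gained a call and 6 lost one. A further 4 changed sign and were called in only 1 of the 2 fits, while 40 sign changes were of values called in neither fit. All 4 came from quantile scaling against TU3401. With it daf-9 gained a call, at 0.39 on Luc RNAi and 0.46 labelled mml-1 RNAi. In the same fits pha-4 lost its call, at 0.082 on Luc RNAi and 0.20 labelled mml-1 RNAi. The cause was not tested. That scaling also changed the split of all genes on Luc RNAi to 6730 higher and 5488 lower, against 5626 and 6253. The replicate block changed no call of a regulator but that of daf-36 labelled mml-1 RNAi against TU3401 (0.67, limma adjusted p = 0.0141), where the numbers did not pair the libraries; the smallest same-number correlation was 0.03 there and 0.07 labelled mxl-2 RNAi. Labelled mxl-2 RNAi, kri-1 against TU3401 was called with quantile scaling (0.89), median-ratio scaling (limma adjusted p = 0.0439), all 16 libraries (0.0462) and plain variances (0.0493), and without TU3401 library 3 (0.0429). Called genes labelled mml-1 RNAi against Luc RNAi, 2 as reported, came to 6 with a pseudocount of 0.1, 1 with a minimum of 5 RPKM, 60 with the replicate block, 39 with all 16 libraries, 389 with voom and the block, and 0 to 53 leaving out 1 library. Labelled mxl-2 RNAi, 13 as reported, they came to 2 with no filter, 8 with a minimum of 5 RPKM, 24 with the block, 25 with all 16 libraries, 314 with voom and the block, and 1 to 16 leaving out 1 library; between both labels voom with the block called 2 genes against 0. A minimum of 5 RPKM left daf-9 and kri-1 untested. Both had the fewest reads of the 10, 28 to 75 per library for daf-9 and 16 to 232 for kri-1.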
